A study of Penicillium oxalicum with 9 samples.

Results

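A set of 3 short runs of consecutive locus numbers in the filamentous fungus Penicillium oxalicum had higher transcript levels in a strain without the transcription factor gene crzA. The runs are PDE_04272 to PDE_04277, PDE_06088 to PDE_06098 and PDE_06348 to PDE_06352. They hold 22 loci, called core loci here, and were taken with 5 flanking locus numbers a side, which adds 30 loci. All 52 numbers had a row in the expression table, out of 9860 rows in all. The runs were chosen by their higher FPKM in the deletion strain, so every difference between the deletion strain and another strain is given below as a description. Where such a difference is named as called by limma, the call describes the table and is no independent evidence, and no p-value is given for it. The recovery strain against the wild type was not named in the choice and is tested. This comparison shares its wild-type libraries with that of the deletion strain against the wild type, so it is not free of the choice.

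CrzA is a fungal DNA-binding protein with zinc fingers. When calcium enters the cytoplasm, calmodulin activates the phosphatase calcineurin, which removes phosphate from CrzA and lets it enter the nucleus. In filamentous fungi it is known for its part in calcium tolerance, cell wall stress, growth and conidiation. Genes of filamentous fungi that act in the same pathway, above all those for secondary metabolites, often lie side by side on a chromosome. Locus numbers are usually given out along the assembled sequence, but the positions of these loci were not analysed here. No gene names stand beside the locus numbers in the table. Of the 52 numbers, 0 were found in the reference annotation, made for a different strain. No function is therefore given for any locus, and no sequence is shown.

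Mycelium of 3 strains was profiled, with 3 libraries per strain. These were a CrzA deletion strain, a CrzA recover strain in which the gene was put back (the recovery strain), and the parent 114-2, the wild type. Pre-culture lasted 24 h at 30 °C. RNA was taken 18 h after transfer to a fresh medium that held 2% starch by its label, although the source names of all 9 samples say glucose. The labels do not say how many clones stand behind each mutant strain or whether the replicates were separate cultures, so p-values cover only variation between libraries, part or all of which may be technical.

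Levels are in FPKM, that is, fragments counted on a gene divided by its length in kilobases and by the library's total. Read totals are unknown, and summed FPKM ranged from 973798 to 1063502. The level of crzA itself, which would check the labels, was not analysed here because its locus number is not known from the table. Deletion replicate 2 and wild-type replicate 2 stood apart from the other libraries of their strains. Across the 9099 genes tested, log2 differences from these to the other 2 libraries of the strain had an SD of 0.724 and 0.758 for deletion replicate 2 and of 0.672 and 0.715 for wild-type replicate 2. The corresponding SD between the remaining pair was 0.351 in the deletion strain and 0.245 in the wild type. Calls that changed without deletion replicate 2, and calls between recovery strain and wild type that changed without wild-type replicate 2, are given with the loci concerned.

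The first run and the third had close median changes, the second, which holds 4 very low loci, a smaller one. The median log2 change of the core loci, deletion strain over wild type, was 1.90 in PDE_04272 to PDE_04277, 1.11 in PDE_06088 to PDE_06098 and 1.95 in PDE_06348 to PDE_06352, against 0.06 over all genes tested. Over the recovery strain the medians were 1.98, 1.24 and 2.19, against -0.02 over all genes tested. Changes are on the log2(FPKM + 1) scale, where those of low loci come out too small. By the mean log2 level of its core loci the first run was the lowest. By the median level the second was the lowest in every deletion and wild-type library. With a pseudocount of 0.1 FPKM the medians over the wild type were 3.79, 1.69 and 1.99, and with 5 FPKM they were 0.77, 0.70 and 1.74. Without deletion replicate 1, 2 or 3 the first run stood at 1.94, 1.65 and 2.11 and the third at 1.60, 2.49 and 1.78. The first run was thus the higher of these with a pseudocount of 0.1 or without deletion replicate 1 or 3. The third was higher with all libraries, with a pseudocount of 5 or without deletion replicate 2. Other settings also went either way, such as 2.90 against 1.95 with a filter at 5 FPKM and 1.97 against 2.24 without wild-type replicate 2. No order between them is read. Some core loci were listed at 0 in all deletion libraries or in all wild-type libraries. With these left out, the medians over the wild type were 2.05 in the first run and 1.24 in the second. In bulk RNA, a change in the share of cells that express a gene cannot be told apart from a change in RNA per cell.

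Of the 22 core loci, 17 reached 1 FPKM in at least 3 libraries and entered the test. Against the wild type all 17 were called higher in the deletion strain, and so they were against the recovery strain (limma, adjusted p under 0.05), where 15.0% and 15.4% of all genes tested were called higher. These calls chose the runs, and nothing is read from them. Both comparisons use the same deletion libraries. PDE_04272, PDE_04273, PDE_06094 and PDE_06095 passed the filter only through the deletion libraries, so these 4 had to differ. The other 5 core loci, PDE_04275 and PDE_06090 to PDE_06093, were below the filter. In 19 of the 22 core loci all 3 deletion libraries lay above all 6 other libraries, as they did in 16.7% of all genes tested. The exceptions were PDE_04275, PDE_06090 and PDE_06093, all below the filter.

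**Figure D1:**
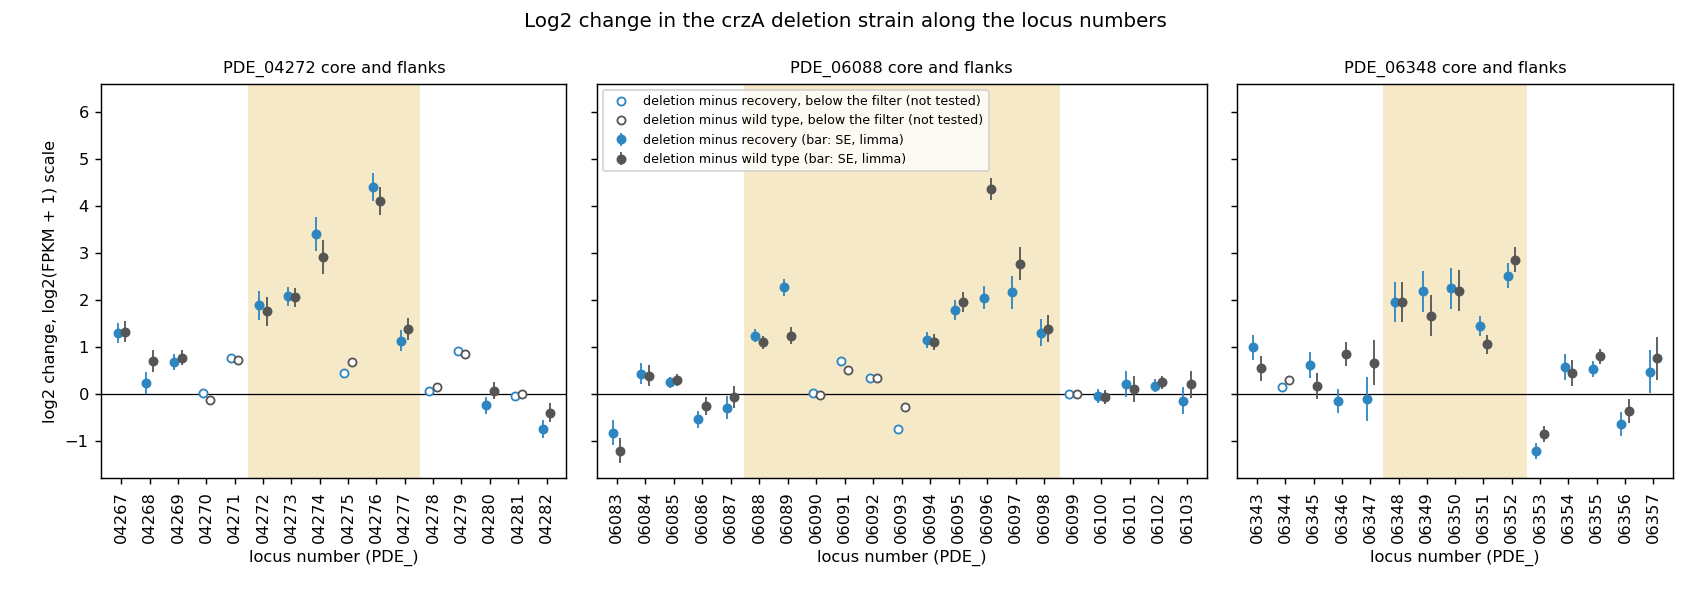
Log2 change on the log2(FPKM + 1) scale (vertical axis) by locus number (horizontal axis) for the deletion strain minus the recovery strain (blue) and minus the wild type (grey). Bars are the standard error of limma with 3 libraries per strain, open points are loci below the filter, and shading marks the core. The recovery value of PDE_04272 was listed at 0. The first run peaks at PDE_04276, the second holds low loci between PDE_06089 and PDE_06094, and the third ends in a change of sign at PDE_06353.

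The run PDE_04272 to PDE_04277 was low in both strains that carry crzA, where no core locus exceeded 5.0 FPKM. Averaged over its 6 core loci, the log2 level was 3.0 ± 0.38 in deletion libraries, 0.78 ± 0.12 in recovery libraries and 0.86 ± 0.14 in wild-type libraries (SD, n = 3 each). PDE_04276 had the highest FPKM of the run. It had 53.1, 96.1 and 60.8 FPKM in deletion replicates 1, 2 and 3, against 2.37, 2.45 and 2.01 FPKM in the recovery libraries and 1.94, 5.0 and 2.63 FPKM in the wild-type libraries. The deletion libraries did not overlap with the others. Its log2 change was 4.10 ± 0.30 over the wild type (SE), the 24th largest increase among the 9099 genes tested, and 4.39 ± 0.30 over the recovery strain. On the FPKM scale the ratio of means was 21.9 over the wild type.

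PDE_04274 had 9.19, 30.2 and 14.5 FPKM in the deletion libraries, 0.38, 0.83 and 0.66 in the recovery libraries and 1.69, 1.02 and 1.15 in the wild-type libraries. Its log2 changes were 2.90 ± 0.36 over the wild type and 3.40 ± 0.36 over the recovery strain. PDE_04273 had 3.02, 5.14 and 3.20 FPKM in the deletion libraries, against 0.10, 0.15 and 0.10 in the recovery libraries and 0.10, 0.15 and 0.15 in the wild-type libraries. For both loci the lowest deletion library stood well above the highest of the other 6, and deletion replicate 2 was the highest of all 9.

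PDE_04272, the first core locus, had 2.86, 4.70 and 1.30 FPKM in the deletion libraries. It was listed at 0 in all recovery libraries and in wild-type replicates 1 and 3, with 0.32 FPKM in wild-type replicate 2. The smallest value above 0 in its row was 0.32 FPKM, so its low values may rest on very few reads. PDE_04275 was the lowest core locus of this run in the deletion libraries, with 0.31, 0.61 and 0.95 FPKM in the deletion libraries, 0, 0.63 and 0 in the recovery libraries and 0 in all wild-type libraries. Its deletion and recovery libraries overlapped.

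At the high-number end, PDE_04277 had 6.49, 8.25 and 7.0 FPKM in the deletion libraries, 3.81, 2.72 and 1.93 in the recovery libraries and 1.66, 2.84 and 2.10 in the wild-type libraries. Its log2 change over the wild type, 1.38 ± 0.23, was the smallest among the 5 tested loci of this run. The deletion libraries were still separated from the rest, and the recovery and wild-type libraries overlapped.

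**Figure D2:**
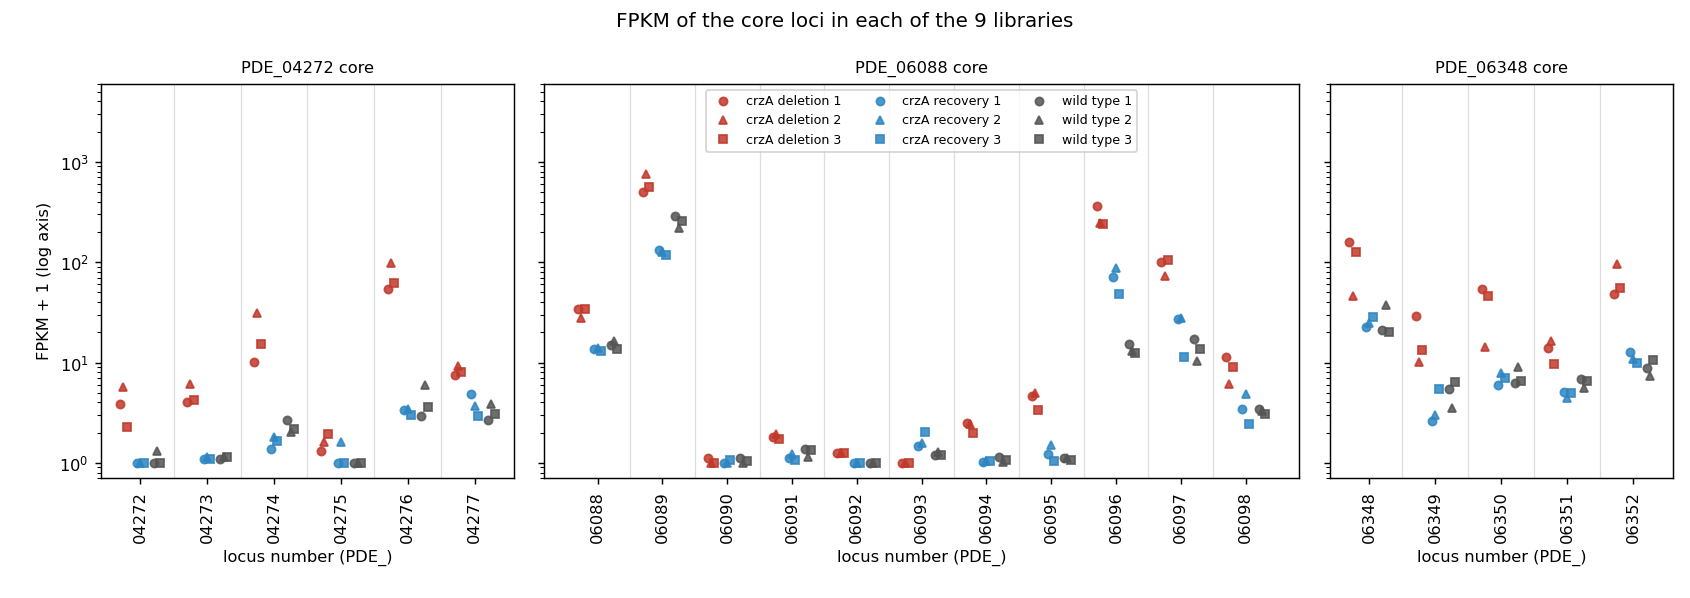
FPKM + 1 on a log axis (vertical) for each core locus (horizontal), with the deletion strain in red, the recovery strain in blue and the wild type in grey. Each point is a library, with circles, triangles and squares for replicates 1, 2 and 3. Deletion libraries lie highest for 19 of the 22 loci, and for PDE_06096 the recovery libraries lie between the other strains.

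The run PDE_06088 to PDE_06098 was uneven. It consisted of a pair of loci with at least 12.2 FPKM in every library, PDE_06088 and PDE_06089, then 4 loci below the filter, then 5 loci from PDE_06094 to PDE_06098 that were all called higher in the deletion strain. Averaged over all 11 core loci, the log2 level was 3.32 ± 0.09 in deletion libraries, 2.20 ± 0.16 in recovery libraries and 2.0 ± 0.08 in wild-type libraries (SD, n = 3 each). The largest log2 change over the wild type in this run, 4.36 ± 0.24, was that of PDE_06096 and was the 18th largest increase among all genes tested.

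PDE_06096 had 358, 243 and 238 FPKM in the deletion libraries, 70.0, 86.1 and 47.1 in the recovery libraries and 14.2, 12.1 and 11.3 in the wild-type libraries. None of the 3 strains overlapped with another. Its neighbour PDE_06097 had 99.01, 71.5 and 104 FPKM in the deletion libraries, 26.0, 26.8 and 10.2 in the recovery libraries and 16.1, 9.37 and 12.7 in the wild-type libraries. Recovery replicates 1 and 2 lay above all wild-type libraries of PDE_06097, while recovery replicate 3 lay among them.

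PDE_06095 had 3.69, 3.94 and 2.39 FPKM in the deletion libraries, 0.23, 0.50 and 0.04 in the recovery libraries and 0.12, 0.11 and 0.08 in the wild-type libraries. PDE_06094 had 1.5, 1.43 and 1.0 FPKM in the deletion libraries and at most 0.14 FPKM in the other 6. At the end of the run, PDE_06098 had 10.4, 5.14 and 7.96 FPKM in the deletion libraries, 2.47, 3.90 and 1.45 in the recovery libraries and 2.43, 2.32 and 2.07 in the wild-type libraries. These loci shared the separation of the deletion libraries but spanned a wide range of levels, with PDE_06094 lowest in FPKM and PDE_06096 highest.

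At the other end, PDE_06088 had 33.1, 27.0 and 33.3 FPKM in the deletion libraries, 12.7, 12.9 and 12.2 in the recovery libraries and 13.9, 15.3 and 12.8 in the wild-type libraries. Its log2 change over the wild type, 1.10 ± 0.14, was the smallest among the 7 tested loci of this run. PDE_06089 had the highest FPKM of all core loci, with 505, 755 and 560 FPKM in the deletion libraries, 130, 124 and 117 in the recovery libraries and 289, 220 and 255 in the wild-type libraries. Here, too, the strains did not overlap, but the order differed from that of PDE_06096, with the recovery strain lowest.

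The 4 loci between these groups were low and did not move together. PDE_06091 had 0.83, 0.92 and 0.74 FPKM in the deletion libraries, 0.11, 0.22 and 0.07 in the recovery libraries and 0.37, 0.15 and 0.33 in the wild-type libraries. PDE_06092 had 0.26, 0.25 and 0.26 FPKM in the deletion libraries and was listed at 0 in the other 6. PDE_06093 ran the other way and was listed at 0 in all deletion libraries, against 0.48, 0.57 and 1.04 FPKM in the recovery libraries and 0.19, 0.28 and 0.19 in the wild-type libraries. PDE_06090 did not exceed 0.11 FPKM in any library. With no filter, where 13.8% of 9823 genes were called higher against the wild type, PDE_06091 and PDE_06092 were called higher. They were also called higher against the recovery strain, where 14.4% were, and PDE_06093 was called lower against the recovery strain, where 14.9% were. PDE_06092 entered this setting only through the deletion libraries, so the direction of its difference was fixed and nothing is read from its calls.

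The run PDE_06348 to PDE_06352 was the most even of the 3 in its mean changes, with all 5 core loci past the filter. Their log2 changes lay between 1.05 and 2.85 over the wild type and between 1.44 and 2.52 over the recovery strain. Every core locus had at least 1.59 FPKM in every library. The mean log2 level of its core loci was 5.07 ± 0.40 in deletion libraries, 3.0 ± 0.13 in recovery libraries and 3.12 ± 0.05 in wild-type libraries (SD, n = 3 each).

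The largest change was that of PDE_06352, the last core locus, at 2.85 ± 0.26 over the wild type. It had 46.9, 95.6 and 54.9 FPKM in the deletion libraries, 11.9, 9.75 and 9.0 in the recovery libraries and 7.78, 6.35 and 9.70 in the wild-type libraries. PDE_06350 had 52.5, 13.4 and 44.6 FPKM in the deletion libraries, 5.02, 6.84 and 5.97 in the recovery libraries and 5.18, 8.06 and 5.57 in the wild-type libraries. Deletion replicate 2 was the highest library for PDE_06352 and the lowest deletion library for PDE_06350.

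PDE_06348, the first core locus, had 158, 45.0 and 124 FPKM in the deletion libraries, 21.3, 23.9 and 27.4 in the recovery libraries and 19.9, 36.5 and 19.2 in the wild-type libraries. Its deletion libraries lay above the other 6 by a narrow margin, since wild-type replicate 2 came close to deletion replicate 2, and the recovery and wild-type libraries overlapped. PDE_06351, with the smallest change of the run, had 13.1, 15.4 and 8.74 FPKM in the deletion libraries, 4.13, 3.44 and 3.97 in the recovery libraries and 5.83, 4.63 and 5.61 in the wild-type libraries. PDE_06349 had 28.2, 9.08 and 12.5 FPKM in the deletion libraries, 1.59, 2.01 and 4.41 in the recovery libraries and 4.5, 2.52 and 5.41 in the wild-type libraries. Its call against the wild type was lost without deletion replicate 1 (log2 change 1.22) or without wild-type replicate 1 (1.74).

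Deletion replicate 2 differed from deletion replicates 1 and 3 within this run in a pattern that changed along the locus numbers. Its log2 level relative to the mean of the other 2 was -2.03 at PDE_06347, -1.62 at PDE_06348, -0.98 at PDE_06349 and -1.78 at PDE_06350, then 0.49 at PDE_06351 and 0.90 at PDE_06352. Among all genes tested, 6.46% were at least 2-fold lower in this library and 6.46% at least 2-fold higher by the same measure. Beyond the run, the value was -0.996 at PDE_06354 and 1.94 at PDE_06357, where the library held 113 FPKM against 27.2 and 30.4 in deletion replicates 1 and 3. Deletion replicate 2 was the highest of all 9 for 5 of the 6 core loci of the first run, for 3 of 11 in the second and for 2 of 5 in the third. Over all genes tested it was so for 18.7%. In 19 of the 22 core loci all 3 deletion libraries lay above the other 6, so 1 of these 3 had to be the highest. The 18.7% is therefore no like measure for these counts. Deletion replicate 2 stood apart over all genes, and the part this played in the pattern was not tested.

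**Figure D3:**
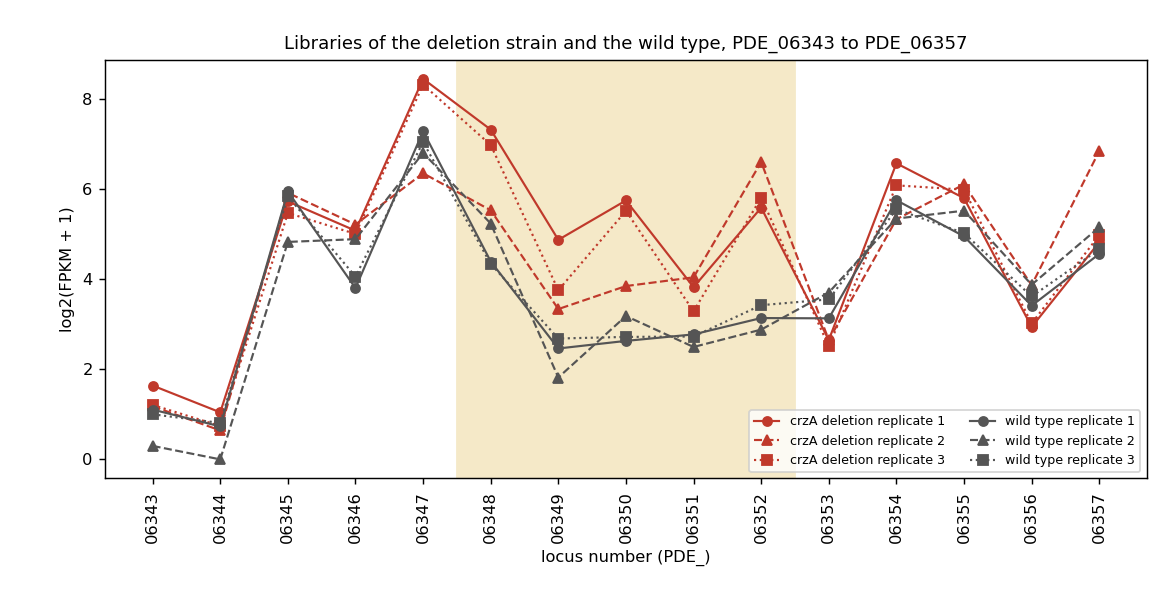
Log2(FPKM + 1) (vertical axis) of PDE_06343 to PDE_06357 (horizontal axis) in the 3 deletion libraries (red) and the 3 wild-type libraries (grey), with solid, dashed and dotted lines for replicates 1, 2 and 3 and the core shaded. Deletion replicate 2 runs below deletion replicates 1 and 3 from PDE_06347 to PDE_06350 and above them at PDE_06351 and PDE_06352.

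Setting the recovery strain against the wild type asked how far each run returned once crzA was put back. The median log2 change of the core loci, recovery strain over wild type, was -0.08 in PDE_04272 to PDE_04277, 0 in PDE_06088 to PDE_06098 and -0.05 in PDE_06348 to PDE_06352, against 0.09 over all genes tested. The -0.08 of the first run lies between the values of PDE_04272 (-0.13) and PDE_04273 (-0.02). Neither exceeded 0.32 FPKM in any recovery or wild-type library, so that median shows little of how far the run returned. With a filter at 5 FPKM, which left 3 of its core loci, it was -0.29. The 0 of the second run is the value of PDE_06092, listed at 0 in all 6 libraries, and its loci ranged from -1.03 to 2.31, so that median does not show how far the run returned. Of the 17 core loci tested, PDE_04272, PDE_04273, PDE_06094 and PDE_06095 entered the test only through the deletion libraries. They did not exceed 0.50 FPKM in any recovery or wild-type library, so that their not passing here says nothing. Of the other 13, 1 was called higher and 1 lower in the recovery strain, and 11 did not pass (limma, adjusted p under 0.05). Over all genes tested, 0.846% were called higher and 0.725% lower. Both called loci lay in the run PDE_06088 to PDE_06098. None of the other 3 tested core loci in the first run and none of the 5 in the third passed, and none of the 23 tested flanking loci did.

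PDE_06096 stayed above the wild type in the recovery strain, at 67.7 ± 19.6 against 12.5 ± 1.47 FPKM (SD, n = 3 each). The log2 change was 2.31 ± 0.24 (SE, 95% confidence interval 1.77 to 2.85, limma adjusted p = 0.00243), and all 3 recovery libraries lay above all 3 wild-type libraries. The locus passed under all 20 alternative settings, with adjusted p in limma from 0.000945 to 0.0196. The recovery libraries were still below every deletion library, with a mean of 280 ± 67.8 FPKM in the deletion strain. Thus its recovery level was 5.41 times the wild-type mean, while the deletion level was 4.13 times the recovery mean.

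PDE_06089, by contrast, fell below the wild type in the recovery strain, at 124 ± 6.44 against 255 ± 34.4 FPKM (SD, n = 3 each). The log2 change was -1.03 ± 0.18 (SE, 95% confidence interval -1.44 to -0.62, limma adjusted p = 0.0286), and all 3 recovery libraries lay below all 3 wild-type libraries. This call was less stable and was lost under 7 of 20 alternative settings, among them the replicate block and leaving out recovery replicate 1, 2 or 3, wild-type replicate 1 or 3, or deletion replicate 3. Adjusted p in limma then lay between 0.0546 and 0.145, with log2 changes from -1.07 to -0.94. The 2 loci called in this run departed from the wild type in opposite directions.

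For the other core loci the intervals show what the data leave room for. The log2 change of PDE_04276 was -0.29, with a 95% confidence interval of -0.96 to 0.38, and that of PDE_04274 was -0.49, with one of -1.31 to 0.33. PDE_06097 stood at 0.60, with an interval of -0.20 to 1.40. In the third run PDE_06348 stood at -0.00225 with an interval of -0.98 to 0.97, PDE_06349 at -0.52 with one of -1.50 to 0.46 and PDE_06350 at -0.05 with one of -1.05 to 0.94. PDE_06351 stood at -0.39 with an interval of -0.87 to 0.09, and PDE_06352 at 0.33 with one of -0.26 to 0.93. On the log2(FPKM + 1) scale a 2-fold change in FPKM is smaller than 1 and depends on the level. Converted at the wild-type level of each locus, a halving lay inside the interval for 6 of the 11 loci that did not pass and a doubling for 5. For 9 of the 11 the interval held at least one of these, and the exceptions were PDE_06088 and PDE_06098. PDE_06098 was so only narrowly, with an interval of -0.585 to 0.753 against -0.615 for a halving and 0.761 for a doubling.

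**Figure D4:**
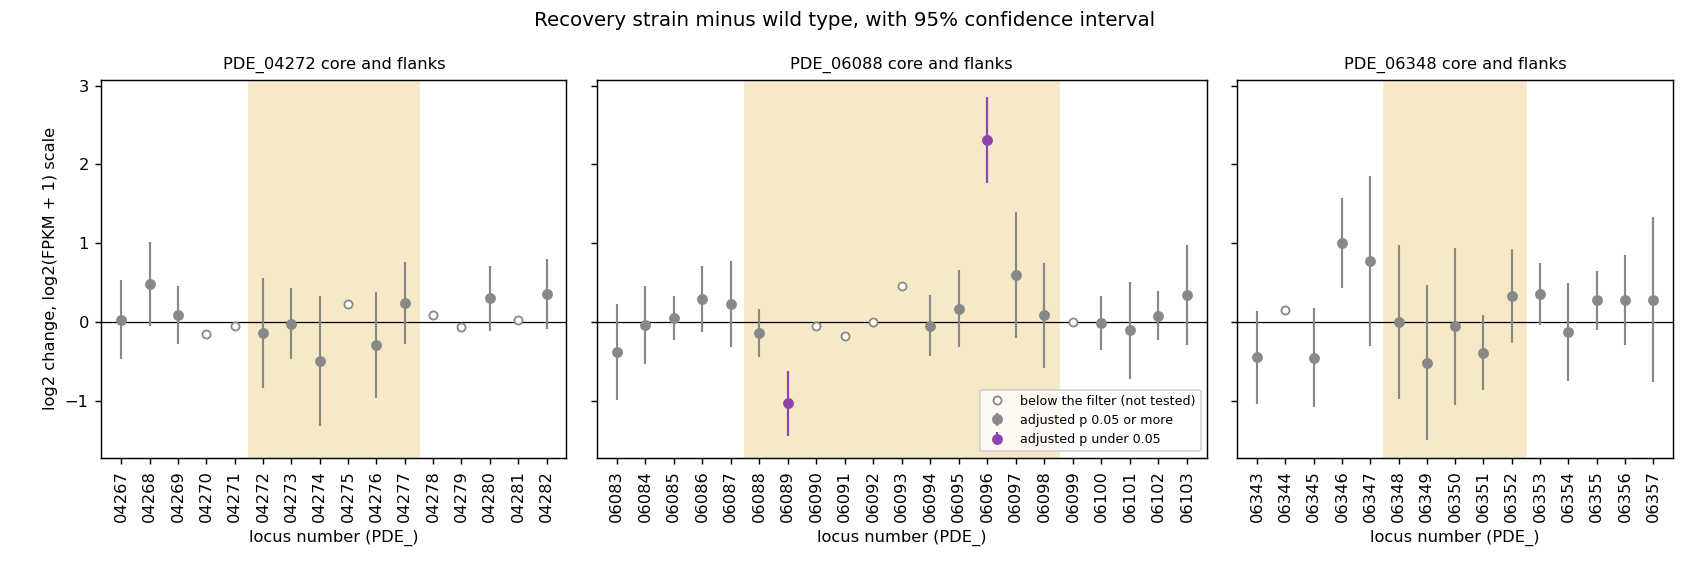
Log2 change of the recovery strain minus the wild type on the log2(FPKM + 1) scale (vertical axis) by locus number (horizontal axis), with 95% confidence intervals from limma (3 libraries per strain). Purple points passed an adjusted p of 0.05, grey points did not, open points are loci below the filter, and shading marks the core. Of the tested loci PDE_06096 (2.31) and PDE_06089 (-1.03) passed.

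The borders of the 3 runs were not alike. Of the 30 flanking loci, 23 passed the filter. Against the wild type 4 of these were called higher in the deletion strain and 2 lower, where 15.0% and 11.1% of all genes tested were. Against the recovery strain 4 were called higher and 3 lower, where 15.4% and 16.1% of all genes were. These were PDE_04267, PDE_04269, PDE_06343 and PDE_06355 on the higher side and PDE_04282, PDE_06083 and PDE_06353 on the lower. PDE_06343 had 2.11, 1.26 and 1.31 FPKM in the deletion libraries, 0.47, 0.08 and 0.31 in the recovery libraries and 1.15, 0.23 and 1.0 in the wild-type libraries. PDE_04282 had 3.03, 3.14 and 4.14 FPKM in the deletion libraries, 7.74, 6.87 and 4.95 in the recovery libraries and 4.6, 4.4 and 5.49 in the wild-type libraries. In both, deletion and recovery libraries did not overlap, and the wild-type libraries overlapped with those of the recovery strain. Calls against the recovery strain were lost under 11 of 20 alternative settings for PDE_06083, under 6 for PDE_06355 and under 3 each for PDE_04282 and PDE_06343, and the call of PDE_06346 against the wild type under 9. The ends of the core were set by measured values, so the steps are a description.

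Deletion replicate 2 moved several of these calls. Without it 6 of the 23 flanking loci were called higher and 4 lower against the wild type, where 24.0% and 17.6% of all genes tested were. Against the recovery strain it was again 6 and 4, where 23.0% and 24.6% were. PDE_06354 was then called higher, with log2 changes of 0.78 over the wild type and 0.90 over the recovery strain, and PDE_06356 lower, with -0.66 and -0.93. PDE_06354 had 93.8, 39.1 and 66.5 FPKM in the deletion libraries, 45.0, 41.0 and 39.5 in the recovery libraries and 52.7, 39.5 and 45.7 in the wild-type libraries. PDE_06356 had 6.65, 13.6 and 7.08 FPKM in the deletion libraries, 14.7, 14.8 and 12.7 in the recovery libraries and 9.62, 13.7 and 11.2 in the wild-type libraries. In both, deletion replicates 1 and 3 lay beyond all recovery and wild-type libraries on one side, and deletion replicate 2 did not. Around the second run PDE_06086 was called lower without it (-0.45 over the wild type and -0.73 over the recovery strain), PDE_06102 higher over the wild type (0.38) and PDE_06084 higher over the recovery strain (0.59). The calls of PDE_06346 against the wild type and of PDE_06083 and PDE_06355 against the recovery strain were lost.

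Around PDE_06088 to PDE_06098 the nearest tested loci on both sides showed little change over the wild type. PDE_06087, just outside, had 8.73, 4.28 and 4.55 FPKM in the deletion libraries, 7.05, 7.57 and 6.64 in the recovery libraries and 6.57, 5.10 and 6.14 in the wild-type libraries. Its deletion libraries overlapped with those of both other strains, while the recovery libraries lay above the wild-type libraries. Its log2 change over the wild type was -0.07, against 1.10 at PDE_06088. On the far side PDE_06099 was listed at 0 in all 9 libraries, which leaves no change to measure, and the 4 numbers after it had log2 changes between -0.06 and 0.25 over the wild type. None of the 9 flanking loci tested here was called higher against the wild type by limma, and 1 was called lower in the deletion strain, the outermost number PDE_06083. It had 2.07, 0.68 and 2.12 FPKM in the deletion libraries, 3.82, 3.31 and 3.31 in the recovery libraries and 4.46, 3.95 and 6.36 in the wild-type libraries.

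Around PDE_04272 to PDE_04277 the changes were uneven and did not fall off steadily. Outward from the low-number end, log2 changes over the wild type ran 0.71, -0.14, 0.76, 0.71 and 1.32 from PDE_04271 to PDE_04267. Past the high-number end they ran 0.15, 0.84, 0.06, -0.004 and -0.40 from PDE_04278 to PDE_04282. PDE_04271, just outside, had 0.78, 1.07 and 0.69 FPKM in the deletion libraries, 0, 0.05 and 0.21 in the recovery libraries and 0.16, 0.05 and 0.16 in the wild-type libraries. It was below the filter, although its deletion libraries lay above the other 6. PDE_04279, the second number past the high end, behaved alike, with 1.11, 0.70 and 1.14 FPKM in the deletion libraries, 0.08, 0.08 and 0 in the recovery libraries and 0, 0.24 and 0.08 in the wild-type libraries. Both were called higher in the deletion strain against both other strains when no filter was used. In that setting 13.8% of 9823 genes were called higher against the wild type and 14.4% against the recovery strain. Between PDE_04277 and PDE_04279 lay PDE_04278, with 0.99, 0.73 and 0.50 FPKM in the deletion libraries, 0.51, 1.01 and 0.51 in the recovery libraries and 0.50, 0.25 and 1.01 in the wild-type libraries, where the strains overlapped.

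Further from this core, 2 loci were also called higher in the deletion strain against both other strains. PDE_04267, at the edge of the window, had 199, 323 and 202 FPKM in the deletion libraries, 103, 99.9 and 84.2 in the recovery libraries and 75.2, 110 and 98.6 in the wild-type libraries. Its log2 change of 1.32 ± 0.22 over the wild type was close to that of PDE_04277 inside the core. PDE_04269 had 14.7, 12.8 and 10.8 FPKM in the deletion libraries, 7.93, 7.10 and 7.61 in the recovery libraries and 7.66, 6.17 and 7.39 in the wild-type libraries. PDE_04268, between these loci, had 8.38, 12.4 and 6.91 FPKM in the deletion libraries, 6.03, 7.41 and 9.57 in the recovery libraries and 5.46, 4.46 and 5.47 in the wild-type libraries. Its log2 change over the wild type, 0.71 ± 0.23, was called only under some alternative settings. Between PDE_04269 and the core lay PDE_04271 and PDE_04270, and the latter did not exceed 0.23 FPKM in any library.

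The border of PDE_06348 to PDE_06352 on the high-number side was marked by a change of sign. PDE_06353 had 5.27, 5.26 and 4.69 FPKM in the deletion libraries, 12.7, 12.6 and 13.9 in the recovery libraries and 7.74, 12.0 and 10.7 in the wild-type libraries. Its deletion libraries lay below the other 6, and its log2 change over the wild type was -0.86 ± 0.17. From PDE_06352 to PDE_06353 the log2 change over the wild type thus dropped by 3.71, while the differences at the other 5 borders lay between 1.04 and 1.39. Of these, 3 were taken against loci below the filter, PDE_04271, PDE_04278 and PDE_06099, and the last, at 0 throughout, makes the difference equal to the change of PDE_06098, so how sharp the borders are cannot be ranked from them. Farther on, PDE_06355 had 54.5, 67.5 and 62.2 FPKM in the deletion libraries, 43.4, 41.5 and 41.9 in the recovery libraries and 29.8, 44.7 and 31.4 in the wild-type libraries, again with the deletion libraries on top.

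On the low-number side the call of PDE_06347, just outside, depended on deletion replicate 2. Relative to the mean of deletion replicates 1 and 3, that library was at -2.03 at PDE_06347 and -1.62 at PDE_06348 inside the core. Both sides of this border thus moved with it. PDE_06347 had 346, 80.3 and 317 FPKM in the deletion libraries, 240, 221 and 210 in the recovery libraries and 154, 110 and 130 in the wild-type libraries. Over all libraries its log2 change was 0.66 ± 0.48 over the wild type and -0.11 ± 0.48 over the recovery strain, and neither was called. Without deletion replicate 2 the changes were 1.34 ± 0.16 over the wild type and 0.57 ± 0.16 over the recovery strain, and both were called. The recovery strain stood at 0.77 over the wild type at this locus, which did not pass with all libraries (95% confidence interval -0.31 to 1.85) and passed without deletion replicate 2 (limma adjusted p = 0.0223), where 4.66% of all genes tested were called. It also passed with only these strains in the fit (limma adjusted p = 0.0456), where 3.19% were.

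PDE_06346, the next number outward, was higher in the deletion strain than in the wild type but was not called against the recovery strain. It had 32.6, 36.0 and 31.0 FPKM in the deletion libraries, 40.6, 38.9 and 32.2 in the recovery libraries and 12.9, 28.5 and 15.6 in the wild-type libraries. Deletion and recovery libraries overlapped, and wild-type replicate 2 lay closer to them than wild-type replicates 1 and 3 did. Without wild-type replicate 2 the recovery strain was higher than the wild type at this locus by 1.32 ± 0.16 on the log2 scale (SE, limma adjusted p = 0.00182), against 1.00 ± 0.25 with all libraries, which did not pass. In that setting 7.50% of all genes tested were called. On the same condition the recovery level of PDE_06345 was lower, by a log2 change of -0.81 (limma adjusted p = 0.0246). It had 32.7, 29.2 and 37.0 FPKM in the recovery libraries, against 60.5, 27.3 and 56.0 in the wild-type libraries. Without both wild-type replicate 2 and deletion replicate 2, 9 of the 40 core and flanking loci tested were called between the recovery strain and the wild type, where 27.9% of all genes tested were called, so that count does not set these loci apart.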

How the data were processed

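The authors deposited 1 table with FPKM values per library, per the file headers, rounded to 2 decimals. Per the labels' protocols, libraries were made from short tags cut with NlaIII and MmeI, which need no division by gene length, so unit and protocol do not match. Levels of different loci are therefore not compared as numbers of molecules. The aligner, counter and genome build were not given in the sources used here. Reads per library are unknown, so no counting interval is given.

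Each of the 9 columns was matched to its sample by name, and strains were taken from the labels. Genes with at least 1 FPKM in at least 3 libraries were kept (9099 of 9860). A linear model was fitted with limma 3.58.1 (R 4.3.3) to log2(FPKM + 1) of all kept genes and all 9 libraries, with 1 mean per strain, no covariates, and trend and robust options. Tests were two-sided with Benjamini-Hochberg adjustment over all kept genes within a comparison and a threshold of 0.05. The fit was checked on simulated data in which all libraries had the same spread, so the check does not cover the libraries that stood apart. Plots were made with Python 3.11.15 and matplotlib 3.10.9.

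The members, the lists and the alternatives were chosen with earlier results of these data known. Per-library values are given for, in each run, the core loci with the 3 largest changes and the smallest, the end loci, the first loci outside, called flanking loci and loci called between recovery strain and wild type. Other loci were named with their values in view. The alternatives varied the pseudocount, filters, scalings, limma options, the strains and libraries in the fit, and the replicate number as a block.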

Additional observations from a re-analysis of the deposited data

How the results depend on the processing

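Against the wild type 23 members were called and against the recovery strain 24, in each case including all 17 tested core loci. Over the alternatives run these counts stayed within 1.5 times. They were 21 to 27 and 19 to 27 when 1 library was left out at a time. The core loci were chosen by these differences, so a steady count was built in and nothing is read from it. Over all genes tested, 15.0% and 15.4% were called higher, and 24.0% and 23.0% without deletion replicate 2. For recovery strain against wild type, 2 members were called. The count was 1 to 4 with 1 library left out, 1 with the replicate block, and 9 without both wild-type replicate 2 and deletion replicate 2. In that last setting 27.9% of all genes tested were called, a larger share than 9 of the 40 members tested, and 7 of the 9 were flanking loci. The cause was not tested.

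Medians of the core loci moved with the pseudocount and the filter, by construction, since low loci weigh on them. For PDE_04272 to PDE_04277 the median log2 change was 3.79 over the wild type and 4.33 over the recovery strain with a pseudocount of 0.1, 0.77 and 0.71 with 5, and 2.90 and 3.40 with a filter at 5 FPKM. With that filter, recovery over wild type was -0.29. For PDE_06088 to PDE_06098 it was 1.69 and 2.04 with a pseudocount of 0.1, 0.70 and 0.66 with 5, and 1.39 and 2.05 with the filter. Leaving out 1 library gave 1.65 to 2.11 over the wild type and 1.73 to 2.19 over the recovery strain in the first run, 1.05 to 1.21 and 1.10 to 1.33 in the second, and 1.60 to 2.49 and 1.74 to 2.49 in the third, and -0.16 to 0.12 for recovery over wild type in the third. Without both libraries that stood apart, the first run had 1.72 and 1.73, and recovery over wild type in the third was 0.12.

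The log2 change of PDE_06347 in deletion against recovery, -0.11 with all libraries, lay between -0.48 and 0.57 with 1 library left out. It reversed to 0.57 without deletion replicate 2, also where wild-type replicate 2 was left out with it. The deletion differences of the core loci chose the members, so repeated calls of core loci are not counted here. Of 257 repeated values behind the 13 deletion differences called among flanking loci, 224 were called again, and of 655 behind the 33 not called, 34 were called.

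The check of pairing gave correlations between deviations of same-numbered libraries from -0.106 to 0.222, with 3 of the 9 pairs over 0.1, so the numbers were not used as a pairing in the results. For 6 of the 9 libraries the closest library of another strain had the same number, a hint from the data only. With the replicate block, 23 and 25 members were called in the deletion comparisons.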
